A study of Arabidopsis thaliana with 18 samples.

Results

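ARR15 (AT1G74890) and RR16 (ARR16, AT2G40670) encode type-A response regulators, and UGT76C2 (AT5G05860) and UGT76C1 (AT5G05870) encode glucosyltransferases that act on cytokinins. These 4 genes were followed by name, each through the probe set whose only annotated gene it is, among 13286 genes that have such a probe set on the Affymetrix ATH1 array. All 4 passed the filter on dim probe sets, which asked for a log2 signal of at least 5 on at least 2 arrays.

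Cytokinins are plant hormones that bind histidine kinase receptors. The signal passes through a phosphorelay to type-B response regulators, which are transcription factors. Type-A response regulator genes are among their fast targets, and the proteins dampen the same pathway, so that their transcripts are often used as a readout of the hormone. UGT76C1 and UGT76C2 lower the amount of active hormone by another route, since they attach glucose to ring nitrogen atoms of cytokinins. In roots, cytokinin is known to promote the cambium, the layer of dividing cells that gives rise to secondary xylem and phloem and that derives from the procambium of the young root.

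The arrays measured RNA of GFP-positive protoplasts, taken from Arabidopsis thaliana roots by flow sorting, with the RNA amplified in 2 cycles. All plants were Columbia wild type with an endoplasmic reticulum-localised GFP reporter. Of the 18 arrays, 16 came from ARR15::GFP seedlings aged 8 days, whose roots were cut into segments, the basal one for cambium, the apical one for procambium and the one between them for transition cambium. Seedlings kept for 6 days on regular medium and then for 48 h on medium with 100 nM BAP, a synthetic cytokinin, gave 3 arrays of each zone. Untreated ARR15::GFP seedlings gave 3 arrays of cambium, 2 of transition cambium and 2 of procambium. The other 2 arrays came from ARR5::GFP seedlings aged 6 days without BAP, whose lower roots were sorted undissected, and that reporter marks procambium and the lateral root cap according to the labels. The sort took cells by the activity of the ARR15 or ARR5 promoter, both of type-A response regulator genes, so a treatment or zone can also change which cells were collected. Fewer cells of a type and less RNA per cell cannot be told apart in such sorts.

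The share of probe sets at log2 5 or more was 47.2% to 49.9% per array, and arrays of a group correlated at r = 0.963 to 0.989 over 22746 probe sets, which are not independent. Of 13 cambium and procambium marker genes listed, 5 had a probe set of their own and 4 passed the filter (MOL1, CLE41, CLE44 and LHW). All 4 were called higher in untreated cambium than in untreated procambium, a comparison that called 35.8% of all probe sets. Of the root cap and the epidermis list, 1 of 5 genes each had a probe set of its own. The root cap entry, AT1G65570, stood at 10.34, 11.50 and 11.00 (log2) in BAP-treated procambium, against 2.94 and 3.75 in untreated procambium, and at 13.81 and 14.21 in ARR5::GFP cells. The epidermis entry, EXPA7, an expansin gene of root hair cells, stood at 2.39, 5.78 and 7.37 in BAP-treated procambium, against 2.64 and 3.01 in untreated procambium, and at 9.75 and 7.67 in ARR5::GFP cells. In BAP-treated cambium AT1G65570 stood at 2.47, 2.67 and 3.07, against 3.07, 2.95 and 2.89 in untreated cambium. In transition cambium it stood at 3.83, 7.65 and 3.49 with BAP, against 2.64 and 2.30 without. The part that such cells have in any result on procambium or on ARR5::GFP cells was not tested.

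The first question was how far 48 h of cytokinin raised the response regulator genes in each zone. In cambium ARR15 measured 6.56, 6.37 and 6.83 (log2 signal) with BAP, against 2.52, 2.51 and 2.96 without. In transition cambium it measured 5.32, 6.49 and 5.97 with BAP, against 3.12 and 2.92 without. In procambium it measured 7.66, 6.24 and 6.76 with BAP, against 2.68 and 2.76 without. All 9 BAP-treated arrays were above log2 5 and all 7 untreated arrays were below it, so the ranges did not overlap in any zone. The untreated cells had been sorted for a reporter of the ARR15 promoter, and the transcript itself lay between 2.51 and 3.12 on their arrays, close to the common floor of 2.17.

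RR16 showed the same contrast between treated and untreated cells, with more spread between zones. In cambium it measured 5.37, 4.61 and 5.10 with BAP, against 2.54, 2.20 and 2.20 without. In transition cambium it measured 5.47, 5.84 and 5.35 with BAP, against 2.20 on both untreated arrays. In procambium it measured 6.60, 6.48 and 7.44 with BAP, against 2.20 on both untreated arrays. The value 2.20 was the lowest of this probe set and occurred on 6 arrays, and 8 of 9 BAP-treated arrays reached log2 5. BAP-treated procambium stood above both other BAP-treated zones without overlap.

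**Figure D1:**
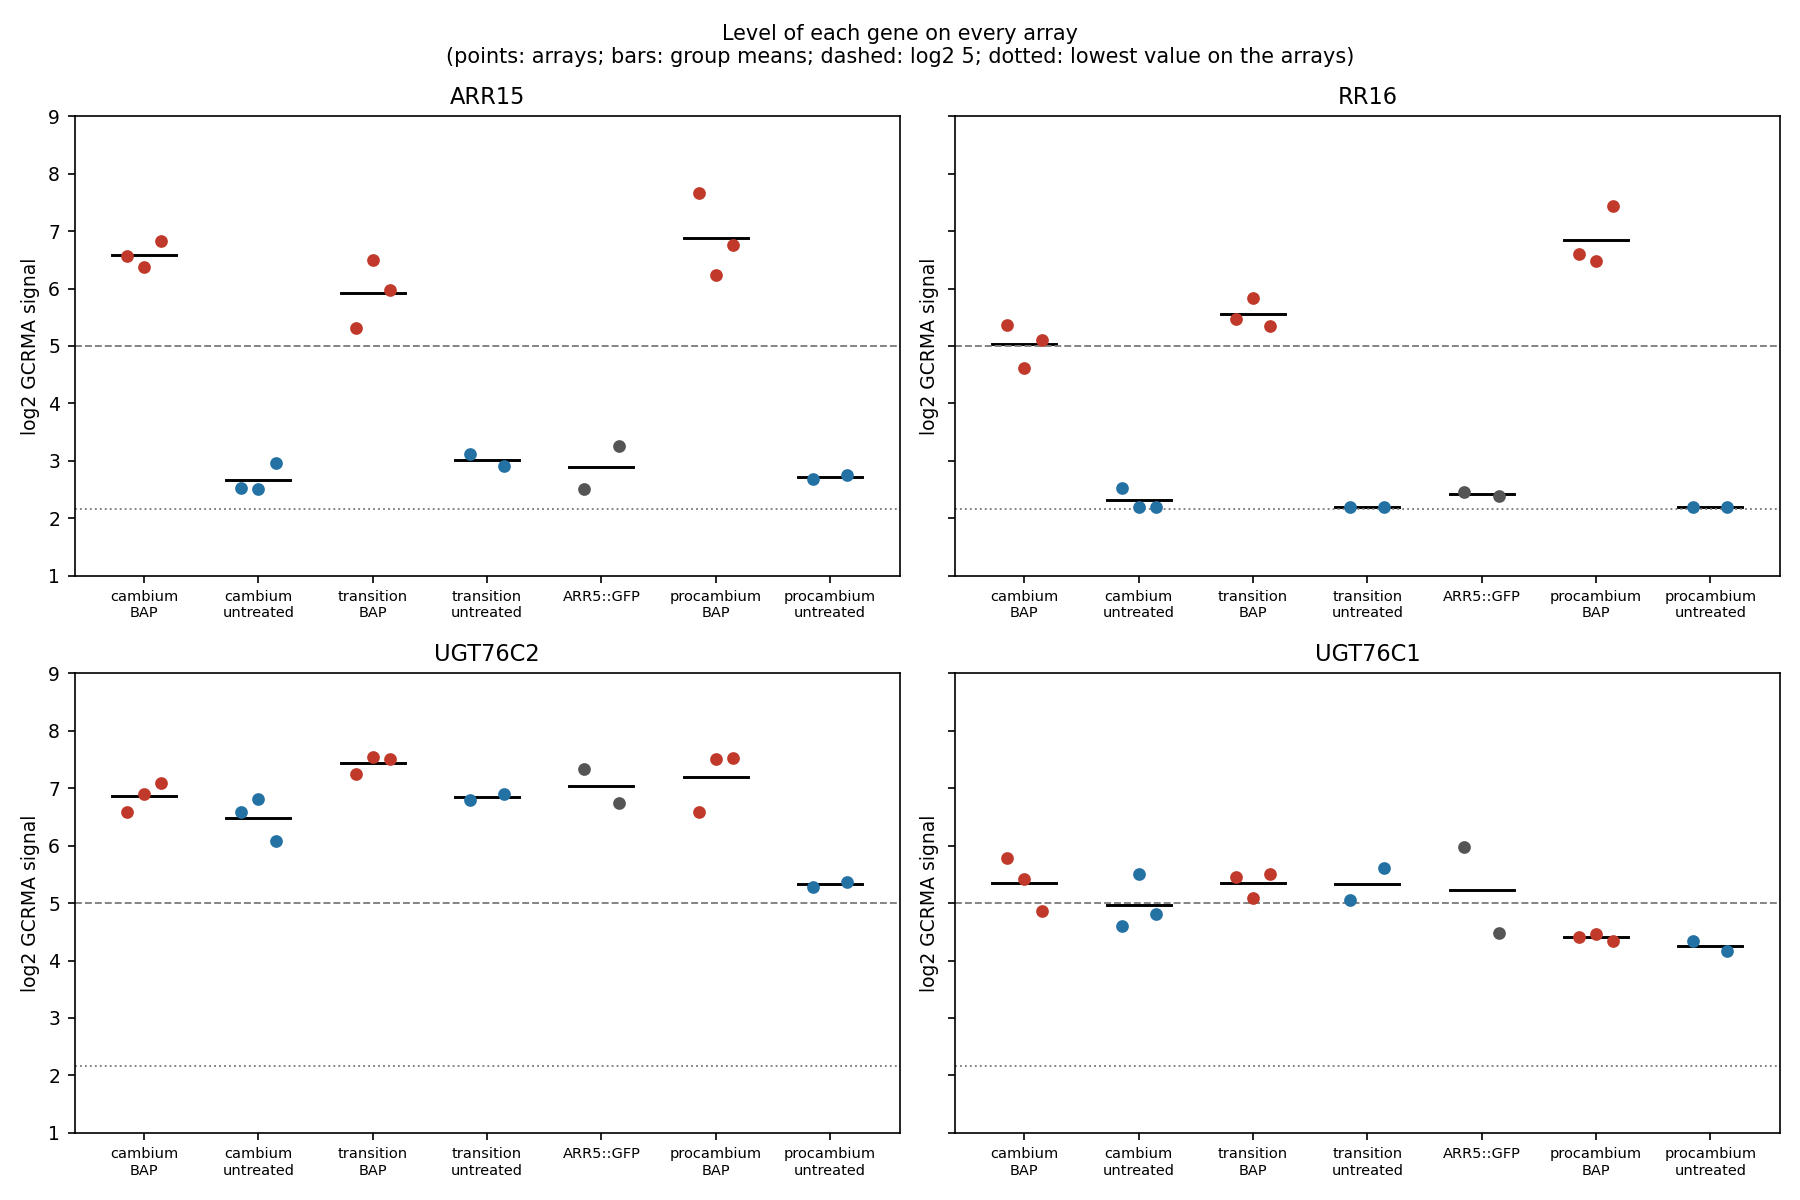
Log2 GCRMA signal (y axis) of ARR15, RR16, UGT76C2 and UGT76C1 in the 7 groups of arrays (x axis), with 1 point per array, a bar at each group mean, a dashed line at log2 5 and a dotted line at the lowest value on the arrays. ARR15 is above log2 5 on all 9 BAP-treated arrays and RR16 on 8 of 9, both are below it on all others, and UGT76C2 is lowest on the 2 arrays of untreated procambium.

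Both response regulator genes rose in every zone in limma's fit. They had passed the filter through BAP-treated arrays only, which favoured calls as higher. Since every untreated array lay below log2 5, where the signal depends on the background model, increases are given as a lower bound of the brighter mean against log2 5. In cambium, where 14.9% of 13202 probe sets were called at an adjusted p of 0.05 (7.71% as higher), ARR15 was at least 3.00-fold higher with BAP (fitted log2 difference 3.92, SE 0.38, adjusted p = 2.35e-05). RR16 was at least 1.02-fold higher there (2.72, SE 0.33, adjusted p = 0.000124). In transition cambium, where 9.4% were called (4.7% as higher), ARR15 was at least 1.90-fold higher (2.91, SE 0.43, adjusted p = 0.000772). RR16 was at least 1.47-fold higher (3.35, SE 0.37, adjusted p = 7.26e-05). In procambium, where 14.1% were called (7.61% as higher), ARR15 was at least 3.70-fold higher (4.17, SE 0.43, adjusted p = 1.53e-05) and RR16 at least 3.58-fold higher (4.64, SE 0.37, adjusted p = 2.15e-06).

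An increase called in each of the 3 zones was uncommon on the array, with 99 of 13202 probe sets, or 0.75%, and these included ARR15 and RR16. Only 6 probe sets (0.0454%) were below log2 5 on all 7 untreated arrays and at or above it on all 9 BAP-treated arrays, and ARR15 was among them. The other 3 with a single annotated gene were AT5G14600, AT1G53070 and AT1G53060, and 2 have no gene name here. With at least 8 of the 9 BAP-treated arrays there were 11 probe sets (0.0833%), and RR16 was among those. These criteria were chosen after the values had been seen.

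The second question was whether BAP also raised the genes that inactivate the hormone. UGT76C2 rose in procambium and UGT76C1 passed the test in no zone. In procambium UGT76C2 measured 6.58, 7.50 and 7.52 with BAP, against 5.29 and 5.37 without. In transition cambium it measured 7.25, 7.55 and 7.51 with BAP, against 6.80 and 6.90 without. In cambium it measured 6.59, 6.90 and 7.08 with BAP, against 6.58, 6.81 and 6.08 without. The groups did not overlap in procambium and transition cambium and overlapped in cambium. With 3 against 2 arrays, a lack of overlap is weak evidence by itself, and the test was passed in procambium only.

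The increase of UGT76C2 in procambium was 3.67-fold (log2 1.88, SE 0.33, adjusted p = 0.0013 in limma). It kept its size but not its call when the 2 procambium groups were fitted alone (adjusted p = 0.0800). In transition cambium the difference was 0.58 (SE 0.33, adjusted p = 0.313), and in cambium it was 0.37 (SE 0.30, adjusted p = 0.427). The 2 untreated procambium arrays were the lowest of all for this gene, and the other 16 arrays all lay at 6.08 or higher.

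UGT76C1, the neighbouring gene, measured 5.79, 5.41 and 4.86 in BAP-treated cambium, against 4.60, 5.51 and 4.81 in untreated cambium. In transition cambium it measured 5.45, 5.10 and 5.50 with BAP, against 5.05 and 5.60 without. In procambium it measured 4.41, 4.46 and 4.34 with BAP, against 4.34 and 4.17 without, all below log2 5. The treated and untreated arrays overlapped in cambium and transition cambium and touched in procambium. The fitted differences were 0.38 in cambium (SE 0.33, adjusted p = 0.464), 0.02 in transition cambium (SE 0.37, adjusted p = 0.989) and 0.15 in procambium (SE 0.37, adjusted p = 0.857).

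**Figure D2:**
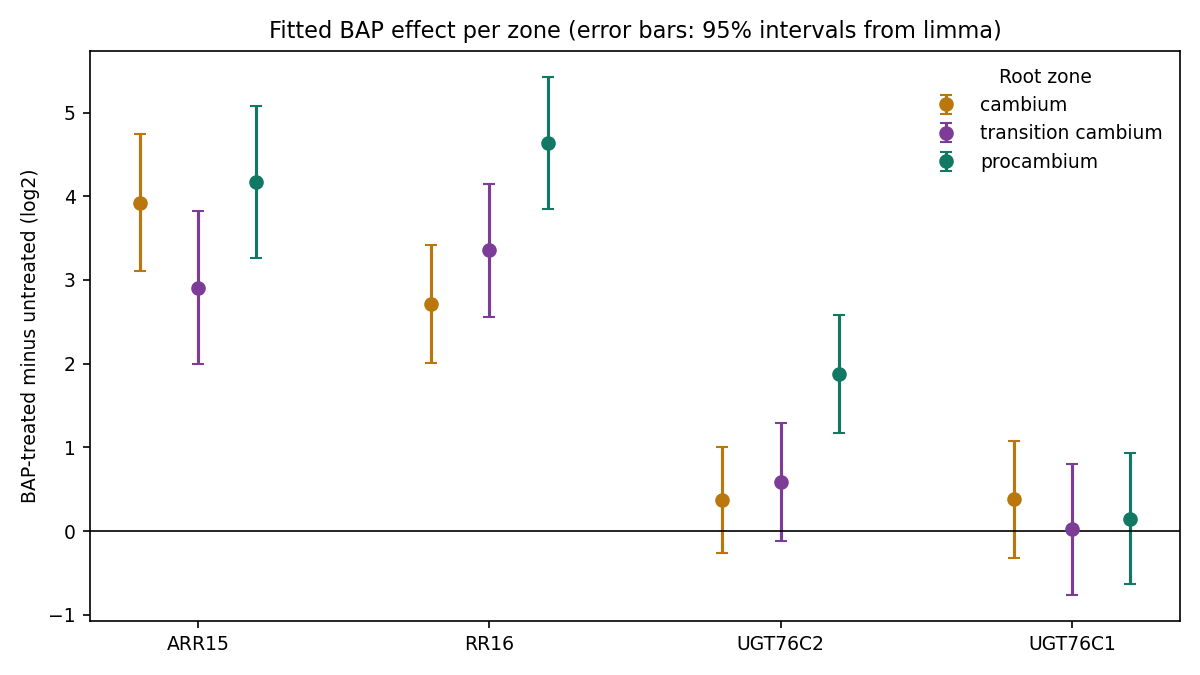
Fitted BAP effect (y axis, log2 BAP-treated minus untreated) of each gene (x axis) in cambium, transition cambium and procambium, with 95% intervals from limma. The intervals of ARR15 and RR16 lie above 0 in all 3 zones, that of UGT76C2 only in procambium, and those of UGT76C1 include 0 in every zone.

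Averaged over the 3 zones, with equal weight, 30.2% of the probe sets were called. ARR15 rose by a fitted log2 difference of 3.67 (SE 0.24, adjusted p = 1.44e-07) and RR16 by 3.57 (SE 0.21, adjusted p = 5.77e-08), both measured against untreated signals near the floor. With the untreated arrays raised to log2 5, these increases were at least 2.77-fold for ARR15 (log2 1.47) and at least 1.75-fold for RR16 (log2 0.81). UGT76C2 rose 1.92-fold (log2 0.94, SE 0.18, adjusted p = 0.0015), which lies above that lower bound for RR16, so RR16 and UGT76C2 cannot be put in order by size. For UGT76C1 the difference was 0.18 (SE 0.20, 95% interval -0.25 to 0.62, adjusted p = 0.534).

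**Figure D3:**
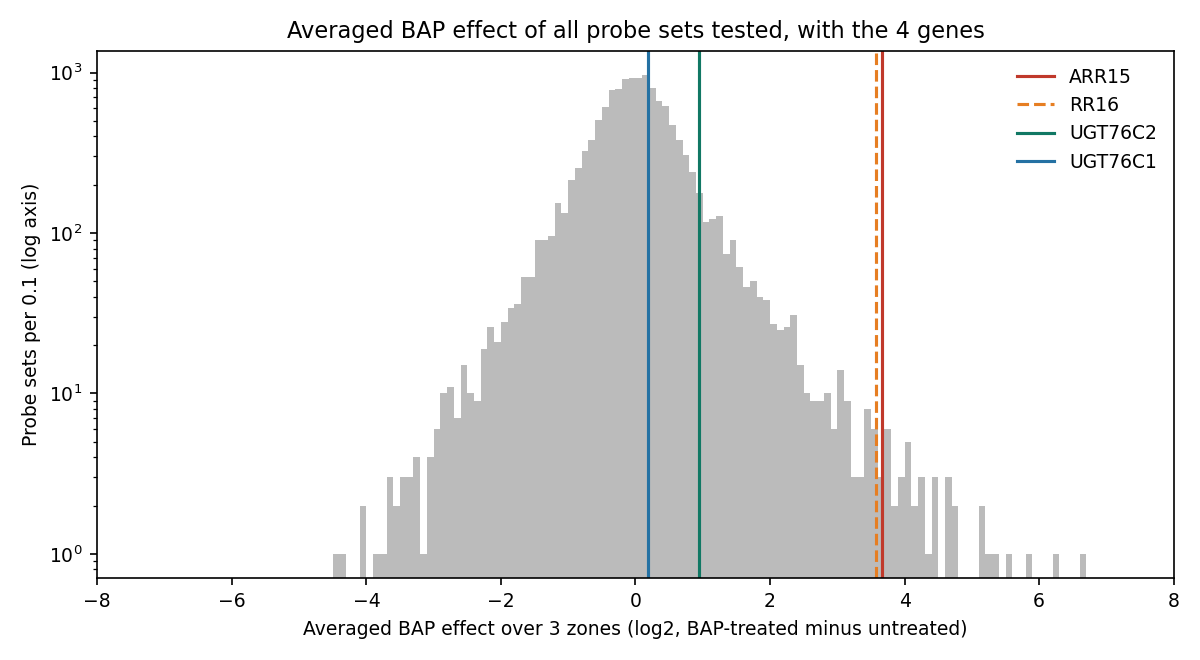
Number of probe sets (y axis, log scale) by averaged BAP effect over the 3 zones (x axis, log2 BAP-treated minus untreated, in steps of 0.1) for the 13202 probe sets tested, with vertical lines at the 4 genes. The fitted effects are 3.67 for ARR15, 3.57 for RR16, 0.94 for UGT76C2 and 0.18 for UGT76C1, and those of ARR15 and RR16 depend on untreated signals near the floor, being 1.47 and 0.81 with untreated arrays raised to log2 5.

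The genes of a pair could be compared within the same arrays, since the difference of both probe sets on an array cancels what shifts them alike. Both differences were tested by exact permutation of the BAP labels within each zone (2000 arrangements, two-sided, smallest possible p = 5e-04). ARR15 minus RR16 changed by 0.10 on the log2 scale with BAP (exact p = 0.764), at 1.21 in cambium, -0.44 in transition cambium and -0.47 in procambium. With all values below log2 5 raised to log2 5, both genes stood at log2 5 on every untreated array. The remaining 0.62 (exact p = 0.043) is then only the gap between the BAP-treated signals of 2 different probe sets. It does not show that the genes rose by unequal amounts, and with untreated signals near the floor that question cannot be decided. UGT76C2 minus UGT76C1 changed by 0.76 (exact p = 0.036, or 0.072 adjusted over the 2 pairs), at -0.01 in cambium, 0.56 in transition cambium and 1.73 in procambium. It kept its sign, at 0.64 to 0.88, and lost an unadjusted p under 0.05 in 9 of 16 fits without 1 array.

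A further question was whether the BAP effect differed between zones. In limma's F test, which called 7.57% of the probe sets, none of the 4 genes passed, with adjusted p = 0.0614 for RR16 (F = 7.63), 0.0882 for UGT76C2 (F = 6.46), 0.352 for ARR15 (F = 2.49) and 0.878 for UGT76C1 (F = 0.28). Without BAP-treated procambium replicate 1, UGT76C2 passed (F = 12.08, adjusted p = 0.0217). Pairwise contrasts of the BAP effects were added after the values had been seen. For the effect in cambium minus that in procambium, which called 8.97%, RR16 had -1.92 (SE 0.50, adjusted p = 0.026) and UGT76C2 had -1.51 (SE 0.44, adjusted p = 0.0469). Both fitted effects were thus larger in procambium, where AT1G65570 was also at least 61.7-fold higher with BAP, a change whose part in these results was not tested. For RR16 the untreated arrays of both zones lay at 2.20 to 2.54, near the floor. Its contrast therefore rests on the BAP-treated levels, and a baseline difference between the zones could not be measured. The calls of both genes were fragile. RR16 lost its call in 4 of 11 fits without 1 array (adjusted p = 0.0256 to 0.0694), namely without either untreated procambium array, BAP-treated cambium replicate 2 or BAP-treated procambium replicate 3. UGT76C2 lost its call in 9 of 11 (adjusted p = 0.0108 to 0.12), all except those without untreated cambium replicate 3 or BAP-treated procambium replicate 1. For ARR15 the contrast was -0.24 (adjusted p = 0.835) and for UGT76C1 it was 0.23 (adjusted p = 0.813). For transition cambium minus procambium, which called 5.27%, none of the 4 passed, with -1.26 for ARR15, -1.29 for RR16 and -1.29 for UGT76C2 (adjusted p = 0.272, 0.182 and 0.132). Without BAP-treated procambium replicate 1, UGT76C2 passed here too (-1.60, adjusted p = 0.0362). Cambium minus transition cambium called 0.371% and none of the 4.

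Levels along the root were compared next, first without BAP. UGT76C2 was lower in untreated procambium than in both older zones. It averaged 6.49 ± 0.37 in cambium (SD, n = 3) and 5.33 ± 0.06 in procambium (SD, n = 2), which is 2.24-fold higher in cambium (log2 1.16, SE 0.33, adjusted p = 0.0132), in a comparison that called 35.8% of the probe sets. The call was lost without either procambium array (adjusted p = 0.0659 without replicate 1 and 0.0522 without replicate 2) and with these groups fitted alone (0.0863). In transition cambium it averaged 6.85 ± 0.07 (SD, n = 2), 2.88-fold above procambium (1.53, SE 0.36, adjusted p = 0.0063), where 28.2% were called. That call was kept without any 1 array (adjusted p = 0.0287 to 0.0348) and lost with these groups fitted alone (0.0774). The median of all probe sets was itself 0.12 higher in transition cambium than in procambium, and the UGT76C2 difference was 1.39 after median centring of the arrays.

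UGT76C1 averaged 4.97 ± 0.48 in untreated cambium (SD, n = 3), 5.33 ± 0.39 in untreated transition cambium (n = 2) and 4.26 ± 0.12 in untreated procambium (n = 2). Cambium minus procambium was 0.72 (SE 0.37, adjusted p = 0.142) and transition cambium minus procambium was 1.07 (SE 0.40, adjusted p = 0.0586). ARR15 and RR16 were below log2 5 on every untreated array, and no zone difference was called for them. None of the 4 genes was called between untreated cambium and transition cambium, where 0.757% were.

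With BAP, RR16 was lower in cambium (5.03 ± 0.38) than in procambium (6.84 ± 0.52, SD, n = 3 each) by -1.81 on the log2 scale (SE 0.33, adjusted p = 0.0007), where 31% of the probe sets were called. It was also lower in transition cambium (5.55 ± 0.25) than in procambium, by -1.29 (SE 0.33, adjusted p = 0.009), where 29.3% were called, and both calls held without any 1 array. ARR15 averaged 6.59 ± 0.23 in cambium, 5.93 ± 0.59 in transition cambium and 6.89 ± 0.72 in procambium (SD, n = 3 each). These ranges overlapped, with -0.30 for cambium minus procambium (adjusted p = 0.596) and -0.96 for transition cambium minus procambium (SE 0.38, adjusted p = 0.0721). The second value passed the threshold without transition cambium replicate 2 (adjusted p = 0.0383) or procambium replicate 2 (0.0299).

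UGT76C1 stood the other way round, above log2 5 on 2 of 3 BAP-treated cambium arrays and all 3 of transition cambium, and below it on all 3 of procambium. It was at least 1.28-fold higher in cambium (log2 0.95, SE 0.33, adjusted p = 0.0383) and at least 1.27-fold higher in transition cambium (0.94, SE 0.33, adjusted p = 0.0417) than in procambium. Each of these calls was lost in 5 of 6 fits without 1 array, those without cambium replicate 3 and without transition cambium replicate 2 being the exceptions (adjusted p = 0.022 to 0.16 for cambium and 0.0486 to 0.128 for transition cambium). UGT76C2 averaged 6.86 ± 0.25 in BAP-treated cambium, 7.44 ± 0.16 in transition cambium and 7.20 ± 0.54 in procambium (SD, n = 3 each), and no pair passed the test (adjusted p = 0.414 for cambium and 0.602 for transition cambium, each against procambium). None of the 4 genes was called between BAP-treated cambium and transition cambium, where 1.26% were.

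ARR5::GFP cells differed from the procambium sort in reporter, seedling age and dissection at once, so these cannot be told apart. From BAP-treated procambium they differed in treatment as well, since they had no BAP. ARR15 measured 2.51 and 3.26 there, and RR16 measured 2.46 and 2.39, all below log2 5 as in the untreated ARR15::GFP sorts. Against BAP-treated procambium, where 31.4% of 13465 probe sets were called, ARR15 was at least 3.70-fold lower (log2 -4.00, SE 0.44, adjusted p = 7.48e-06) and RR16 at least 3.58-fold lower (-4.41, SE 0.36, adjusted p = 7.22e-07). UGT76C2 measured 7.33 and 6.74, above both untreated procambium arrays. It was 3.27-fold higher than in untreated procambium (1.71, SE 0.37, adjusted p = 0.0025), where 31.5% were called, and not when these groups were fitted alone (adjusted p = 0.115). Against BAP-treated procambium it differed by -0.17 (SE 0.34, adjusted p = 0.756).

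UGT76C1 measured 5.98 and 4.47 in ARR5::GFP cells, the widest spread of this gene in a group. Its difference was 0.97 from untreated procambium (SE 0.47, adjusted p = 0.134) and 0.82 from BAP-treated procambium (SE 0.43, adjusted p = 0.164). Without ARR5::GFP replicate 2 these were 1.72 (adjusted p = 0.0189) and 1.58 (0.0247). ARR5 itself has no probe set named here and was not analysed.

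Ordered by group mean, the 3 BAP-treated zones of ARR15 overlapped each other and stood apart from the 4 other groups, which overlapped in turn. For RR16, BAP-treated procambium stood apart at the top, BAP-treated transition cambium and cambium overlapped, and the other groups followed below a gap. For UGT76C1 the groups overlapped from BAP-treated cambium at the top down to untreated cambium, and both procambium groups lay below. For UGT76C2 each group overlapped the next except untreated procambium, which lay apart at the bottom.

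Genes with the most similar pattern were sought by the root mean square difference of the 7 group means, after each probe set's mean over the groups was subtracted, among 7167 single-gene probe sets that passed the filter. The measure describes likeness over 7 groups only. The nearest of all to ARR15 was RR16, and the nearest to RR16 was ARR15, at 0.45 log2 units against a median of 1.94 over the probe sets compared with ARR15. Both genes were below log2 5 in 4 of the 7 groups, so this likeness rests in part on signals near the floor. Next among genes with a symbol came ATC, a relative of the flowering repressor TFL1, at 0.84 from ARR15 and 0.72 from RR16. The endoplasmic reticulum body gene NAI2 followed for ARR15 at 1.07, and the transcription factor gene bZIP44 for RR16 at 1.10.

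The glucosyltransferase genes were not each other's neighbours by this measure. UGT76C2 ranked 1324th in likeness to UGT76C1, and UGT76C1 ranked 242nd in likeness to UGT76C2, at 0.51. The nearest named genes were NUP1 (0.13), SAT32 (0.17) and the lipocalin gene TIL (0.19) for UGT76C1, and the glutaredoxin gene GRXC2 (0.29), the beta-glucosidase gene PYK10 (0.31) and the starch-metabolism gene DPE1 (0.32) for UGT76C2. The medians over all probe sets compared were 0.77 for UGT76C1 and 0.92 for UGT76C2.

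The wider cytokinin pathway could be read only in small part. Of 78 listed genes for synthesis, activation, transport, perception, response and inactivation, 9 had a probe set of their own and 5 passed the filter, namely the 4 genes above and AZG1, which encodes a purine and cytokinin transporter. Of these 5, BAP called 2 in cambium, 2 in transition cambium and 3 in procambium, all higher, where 7.71%, 4.7% and 7.61% of all probe sets were called higher. Their median log2 differences were 1.39, 1.07 and 1.88 in the same order of zones, against 0.02, -0.03 and -0.01 over all probe sets. Since 4 of the 5 are the genes described above, these counts and medians are no separate evidence. ARR15 and RR16 passed the filter through BAP-treated arrays only, which favoured calls as higher. AZG1 was called in no comparison, and its BAP effect in cambium was 1.39 (adjusted p = 0.305). The type-B regulators RR18 and RR19, the type-C regulator RR22 and UGT73C1, which attaches glucose to the side chain of cytokinins, did not pass the filter.

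The UGT76 family was covered in full, with 13 of 13 genes. UGT76C2, UGT76C1, AT5G05880, AT5G05890 and AT5G05900 follow each other directly on chromosome 5 in the TAIR10.1 gene table. How far their probe sets bind each other's RNA was not tested. Of the 11 family members other than UGT76C1 and UGT76C2, 5 passed the filter, and BAP raised 2 of these 5 in procambium, where 7.61% of all probe sets were called higher. It raised none of them in cambium (7.71%) or transition cambium (4.7%). Their median log2 difference in procambium was 0.23, against -0.01 over all probe sets.

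AT5G05880 measured 9.23, 9.56 and 9.72 in BAP-treated procambium, against 7.67 and 6.91 in untreated procambium, and rose by 2.21 on the log2 scale (SE 0.47, adjusted p = 0.0053, or 0.0627 without untreated procambium replicate 2). It was the only one of the 7 family members tested whose BAP effect differed between zones in the F test (adjusted p = 0.0385). In ARR5::GFP cells it measured 9.65 and 9.87. UGT76D1, a flavonol glucosyltransferase in laboratory assays, measured 7.20, 6.82 and 6.86 in BAP-treated procambium, against 4.75 and 4.58 in untreated procambium, at least 3.89-fold higher (adjusted p = 0.0111, or 0.0546 and 0.0638 without the first and the second untreated array). Both genes were high on the same BAP-treated procambium arrays as AT1G65570, whose part in this was not tested. Among the ARR15::GFP arrays, UGT76D1 reached log2 5 in BAP-treated procambium only and passed the filter through that group, which favoured a call as higher.

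**Figure D4:**
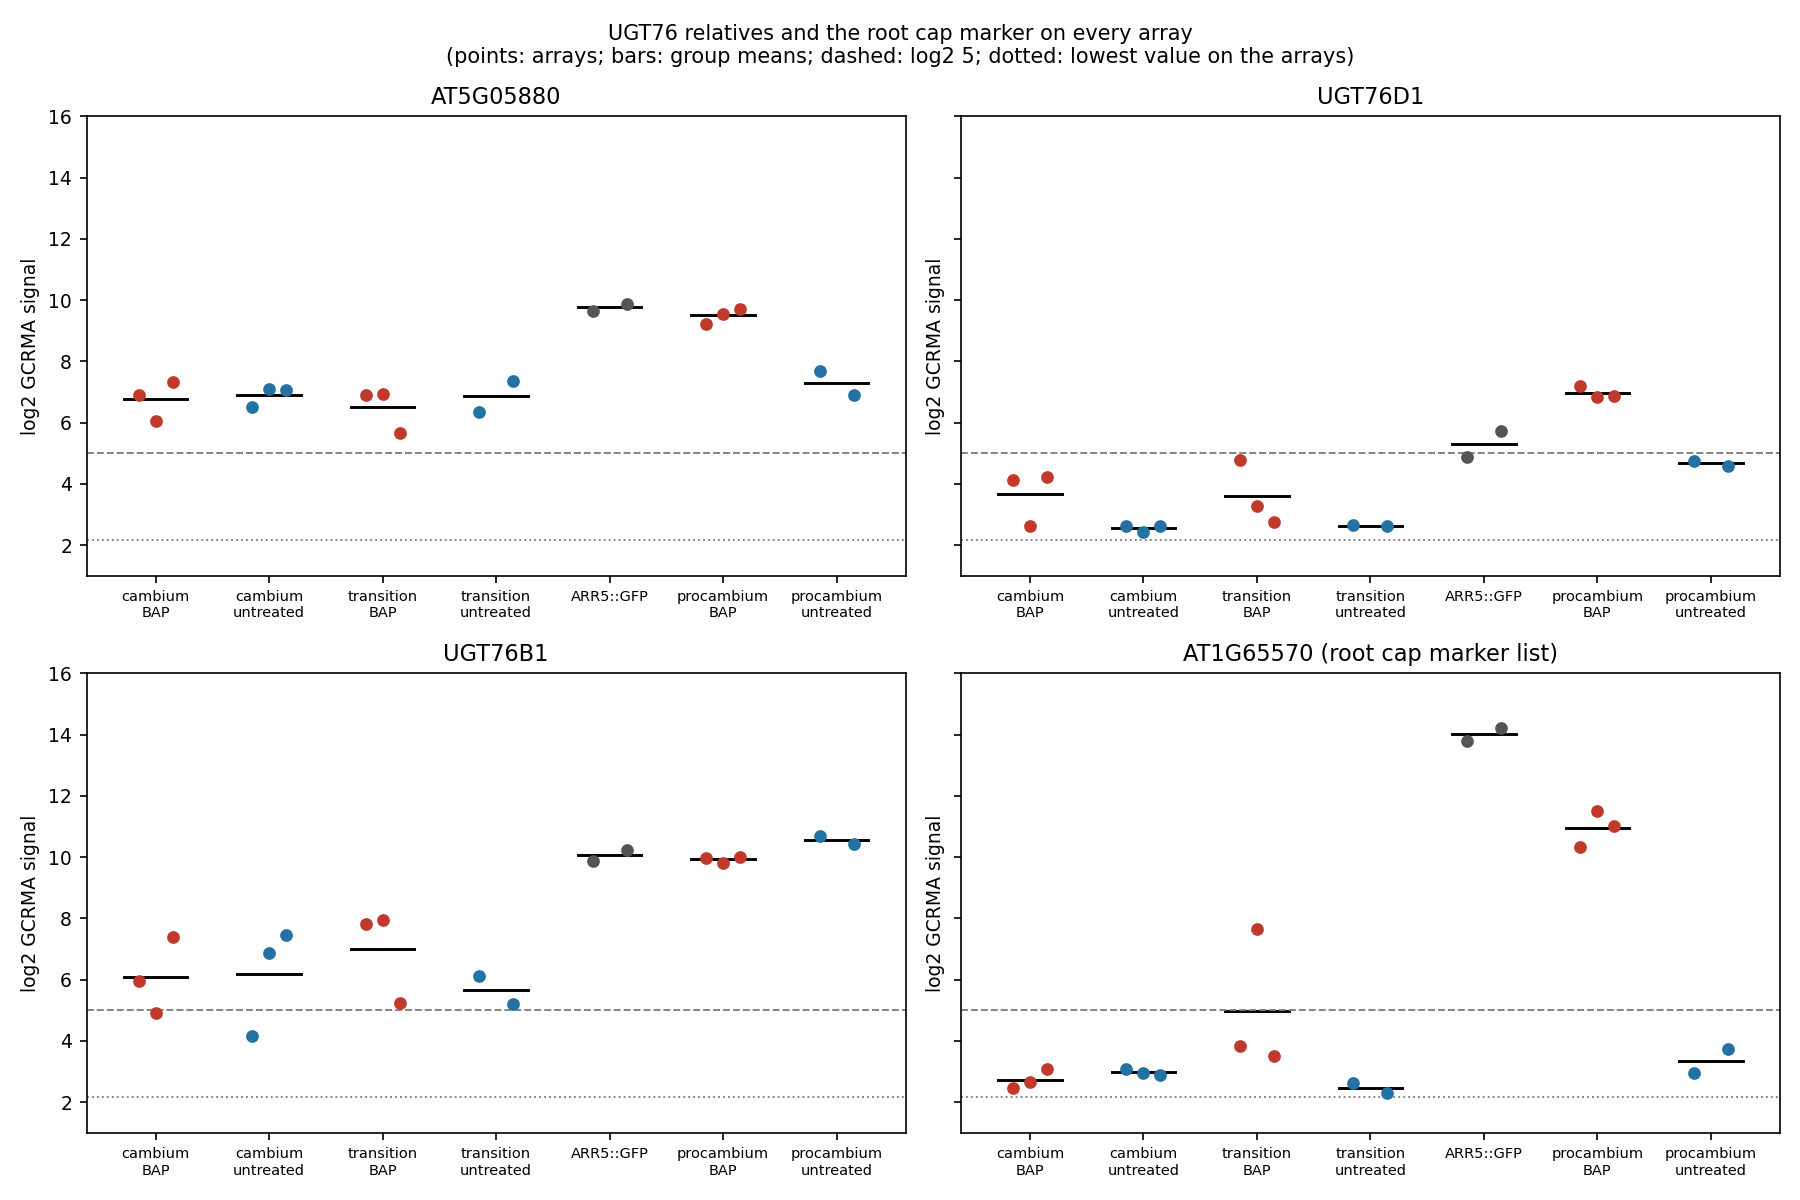
Log2 GCRMA signal (y axis) of AT5G05880, UGT76D1 and UGT76B1 of the UGT76 family and of the root cap list entry AT1G65570 in the 7 groups of arrays (x axis), with 1 point per array, bars at group means, a dashed line at log2 5 and a dotted line at the lowest value on the arrays. AT5G05880 and UGT76D1 are higher in BAP-treated than in untreated procambium, as is AT1G65570, and UGT76B1 is highest in ARR5::GFP cells and in both procambium groups.

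UGT76B1, which glucosylates isoleucic acid and salicylic acid, was lower in cambium than in procambium with and without BAP. It measured 4.16, 6.88 and 7.47 in untreated cambium, against 10.68 and 10.42 in untreated procambium, a difference of -4.38 (adjusted p = 0.0023 in limma). With BAP it measured 5.96, 4.90 and 7.39 in cambium, against 9.96, 9.82 and 10.01 in procambium, a difference of -3.85 (adjusted p = 0.0025). Its BAP effect in procambium was -0.62 (SE 0.93, adjusted p = 0.734). Cambium against procambium called 35.8% of all probe sets without BAP and 31% with BAP. Of the 5 relatives that passed the filter, 2 were called lower in cambium without BAP and 3 with BAP, UGT76B1 among them. AT5G05890, which lies between AT5G05880 and AT5G05900, measured 6.65, 6.15 and 6.19 in BAP-treated procambium, against 6.42 and 5.78 in untreated procambium, and AT5G05900 reached log2 5 on no array.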

How the data were processed

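The deposited values are log2 signals of 22810 ATH1 probe sets on each of 18 arrays, which GCRMA produced, per the submitters' processing notes; the arrays normalized together by the authors are not named in the labels. GCRMA places dim probe sets near a common floor, here 2.17, so differences below log2 5 depend on its background model. The number of arrays per group sets the precision. Groups follow the zone, treatment and reporter in the labels. An untreated procambium title whose parts give 3 and 2 was taken as replicate 2. The labels call replicates biological without saying more of their origin, so p-values measure the spread between these samples. No batch or date is given, so batch and treatment cannot be told apart.

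Without the 64 controls, probe sets at log2 5 or more on at least 2 arrays entered the fits (13202 over the 16 ARR15::GFP arrays, 13465 over all 18). limma 3.58.1 in R 4.3.3 fitted a mean per group (10 and 11 residual degrees of freedom), with eBayes and an intensity trend, and p-values were adjusted by Benjamini-Hochberg over all probe sets kept; the threshold was 0.05. The fits were tested on simulated data. A bound of "at least" sets the brighter group's mean against log2 5 where every array of the dimmer group is below it. Of 22746 probe sets, 13513 have 1 gene in the platform annotation and 13436 matched the reference gene table; no sequence was used. Whether replicate numbers pair the samples is not known, and the main fits did not pair them.

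The genes, the marker and pathway lists and the tests were chosen with earlier results of these data known. Named were the 4 genes, any listed cytokinin or UGT76 gene and marker with a probe set of its own, and the 3 genes with a symbol nearest to each of the 4 in pattern. The pairwise contrasts of BAP effects and the fits of UGT76 relatives without 1 array were added after seeing the data. Alternatives were median centring, quantile normalization, no filter, a filter at log2 6, no trend and a replicate block. Further ones were the compared groups alone, each array left out and, for the within-array differences of gene pairs only, values raised to log2 5.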

Additional observations from a re-analysis of the deposited data

Results flagged for a closer look

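The BAP effect of RR16 differed between zones in the contrast of cambium minus procambium, at -1.92 on the log2 scale (SE 0.50, limma adjusted p = 0.026). RR16 measured 5.37, 4.61 and 5.10 in BAP-treated cambium and 6.60, 6.48 and 7.44 in BAP-treated procambium, and all arrays of both zones without BAP were between 2.20 and 2.54. Those untreated signals lay near the floor, so the contrast rests on the BAP-treated levels and a baseline difference could not be measured. The call was lost without BAP-treated cambium replicate 2 (adjusted p = 0.063) or BAP-treated procambium replicate 3 (0.0652). It was also lost with the replicate block (0.0556).

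The BAP effect of UGT76C2 differed in the same contrast, at -1.51 (SE 0.44, limma adjusted p = 0.0469). It measured 6.59, 6.90 and 7.08 in BAP-treated cambium, against 6.58, 6.81 and 6.08 in untreated cambium. In procambium it measured 6.58, 7.50 and 7.52 with BAP, against 5.29 and 5.37 without. The UGT76C2 call was lost with no filter (adjusted p = 0.0525) and with the replicate block (0.0674). It was also lost without any 1 of the BAP-treated cambium arrays (0.0614 to 0.112). The contrast was chosen after the values had been seen. The F test over all 3 zones passed for neither gene with all arrays (adjusted p = 0.0217 for UGT76C2 without BAP-treated procambium replicate 1).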

How the results depend on the processing

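The BAP effects of ARR15 and RR16, per zone and averaged, kept direction and call under all 118 alternatives (highest adjusted p = 0.0232). Of 699 recomputed values of the 4 genes, 654 kept their direction and side of the threshold. The cause of the exceptions was not tested.

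The calls of UGT76C1 between BAP-treated zones were the least stable. Cambium minus procambium was 0.90 with median centring (adjusted p = 0.0562), 0.88 with quantile normalization (0.0568), 0.95 with the groups alone (0.0509) and 0.73 to 1.20 without 1 array. Transition cambium minus procambium was 0.86 with median centring (0.0665), 0.86 with quantile normalization (0.0631), 0.94 with no filter (0.0512) and 0.87 to 1.07 without 1 array. Same-numbered arrays deviated from group means with r = -0.52 to 0.28 (median -0.04, 2 of 36 over 0.1). Groups this small cannot decide pairing. With the replicate block the 2 calls were lost at 0.95 (0.0554) and 0.94 (0.0597), as were those of the contrasts of BAP effects, cambium minus procambium, for RR16 (-1.88, 0.0556) and UGT76C2 (-1.48, 0.0674), and that of UGT76C2 was also lost with no filter (0.0525).

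Fitted with the compared groups alone, UGT76C2 was not called for BAP in procambium (1.88), nor for untreated cambium (1.16), transition cambium (1.53) or ARR5::GFP cells (1.71) against untreated procambium. Without 1 array its untreated cambium difference was 1.00 to 1.37. UGT76C1 between untreated transition cambium and procambium passed without the trend (1.07, adjusted p = 0.0401). The F statistic of RR16 passed with no filter (11.55, 0.0493) and without the trend (10.29, 0.0321), and that of UGT76C2 was 4.17 to 12.08 without 1 array, passing without BAP-treated procambium replicate 1 (adjusted p = 0.0217), as did its contrast of transition cambium minus procambium (-1.60, 0.0362). BAP-treated transition cambium minus procambium was -1.28 to -0.58 for ARR15, and UGT76C1 in ARR5::GFP cells was 0.22 to 1.72 above untreated and 0.0695 to 1.58 above BAP-treated procambium. ARR15 minus RR16 was 0.62 with values raised to log2 5 and -0.0714 to 0.22 without 1 array; UGT76C2 minus UGT76C1 was 0.64 to 0.88.

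Sign changes concerned uncalled values. With quantile normalization these were UGT76C1 for BAP in procambium (-0.0271) and, in the contrasts of BAP effects against procambium, ARR15 in cambium (0.0788) and UGT76C1 in transition cambium (0.0979). Without 1 array they were UGT76C1 for BAP in transition cambium (-0.26 to 0.30) and between BAP-treated cambium and transition cambium (-0.21 to 0.25), ARR15 between cambium and procambium untreated (-0.21 to 0.0179) and with BAP (-0.63 to 0.0836), UGT76C2 between BAP-treated transition cambium and procambium (-0.0782 to 0.39), ARR15 in ARR5::GFP cells against untreated procambium (-0.21 to 0.54), UGT76C2 there against BAP-treated procambium (-0.48 to 0.13), and, in the contrasts against procambium, ARR15 in cambium (-0.57 to 0.14) and UGT76C1 in transition cambium (-0.40 to 0.15).

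Counts of called probe sets moved by over 1.5 times with the groups alone, to 772 against 1241 for BAP in transition cambium, 709 against 1855 for BAP in procambium, 2542 against 4720 for untreated cambium and 1154 against 3720 for untreated transition cambium versus procambium, 62 against 167 between BAP-treated cambium and transition cambium, and 656 against 4244 and 1676 against 4224 for ARR5::GFP cells versus untreated and BAP-treated procambium. Between untreated cambium and transition cambium limma then called 0 against 100 (856 at an unadjusted p under 0.05). With no filter 82 were called between BAP-treated cambium and transition cambium. Without 1 array the counts reached as low as 1019 for BAP in cambium (1962 with all), 516 in transition cambium (1241) and 1185 in procambium (1855). They were 16 to 219 between untreated cambium and transition cambium (100), down to 1924 between untreated transition cambium and procambium (3720), and down to 76 (167) for cambium and 2575 (3863) for procambium, each compared with BAP-treated transition cambium. For ARR5::GFP cells they fell to 2719 (4244) against untreated and 2612 (4224) against BAP-treated procambium. The F test called as few as 592 (999), and the contrasts of BAP effects 741 (1184) for cambium minus procambium, 359 (696) for transition cambium minus procambium and 21 to 87 (49) for cambium minus transition cambium.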
